A study of Mus musculus with 6 samples.

Results

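The mitochondrial genome transcripts of murine chronic myelogenous leukaemia (CML) stem cells are described here, as every row of the gene expression table that lies on the mitochondrial chromosome. There were 35 such rows of 36976 in all, comprising 13 protein-coding and 22 tRNA genes. The genes of both ribosomal RNAs, mt-Rnr1 and mt-Rnr2, were not among the rows of this chromosome and were not analysed here. RNA sequencing was performed on long-term (LT) CML stem cells from the bone marrow of C57BL/6 mice 5 weeks after disease induction, and compared 3 Gdpd3+/+ libraries (replicates 1, 2 and 3) with 3 Gdpd3-/- libraries (replicates 5, 6 and 7). Gdpd3 encodes a lysophospholipase D, and the comparison asked how its loss changes the transcriptome of these cells. All animals carried the SCL-tTA and TRE-BCR-ABL1 transgenes (tet-CML), so that BCR-ABL1 was switched on by removing doxycycline and only in cells in which the Scl enhancer drives tTA, and Gdpd3-/- mice additionally carried a small deletion in Gdpd3 made by genome editing. Cells were sorted as CD150+CD48-CD135- cells of the lineage-negative, Sca-1+, c-Kit+ fraction. RNA was taken from 34 Gdpd3+/+ mice (22 males and 12 females) and 10 Gdpd3-/- mice (5 males and 5 females), so each library was a pool of animals, and how the mice were divided among libraries is not given in the sources used here.

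Mitochondrial DNA is a small circle that encodes subunits of respiratory complexes I, III, IV and V together with the rRNAs and tRNAs needed to translate them inside the organelle. Both strands are transcribed as long precursors in which tRNAs lie between the mRNAs and rRNAs, and the precursors are cut at the tRNA ends by mitochondrial RNase P and Elac2. Levels of the mature RNAs then depend on how fast each is degraded, while complex II and all proteins of mitochondrial transcription and RNA processing are encoded in the nucleus. Haematopoietic stem cells are known for their low reliance on respiration, whereas skeletal muscle is rich in mitochondria. Values are given as FPKM, fragments scaled to gene length and library size, and a fold change is on the log2(FPKM + 0.1) scale. Where 3 values follow each other for a genotype, they are those of its libraries in the order of their numbers. The cDNA of these libraries does not keep the strand of the RNA and was primed on poly(A), so a tRNA row holds any read over that stretch of DNA: mature tRNA, uncut precursor and RNA of the opposite strand could not be told apart. Protein-coding rows likewise hold reads of both strands, so the minus-strand mt-Nd6 row can hold plus-strand RNA.

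The tRNA genes on which the results turn lie in 2 runs of neighbours, and their sequences are shown because each run lies between long mRNAs. They are GENCODE M21 transcripts on GRCm38, where all 35 rows have the position and strand given in the table, and are written 5′ to 3′ with the anticodon in capitals. The isoleucine, glutamine and methionine tRNAs (chrM:3706-3774 on the plus strand, chrM:3772-3842 on the minus strand and chrM:3845-3913 on the plus strand) fill the gap between mt-Nd1 and mt-Nd2. The histidine, serine and leucine tRNAs (chrM:11546-11612, chrM:11613-11671 and chrM:11671-11741, all on the plus strand) fill the gap between mt-Nd4 and mt-Nd5. The second serine tRNA, mt-Ts1 (chrM:6870-6938), and the tyrosine tRNA, mt-Ty (chrM:5260-5326), both on the minus strand, are added because the former had the highest level of all tRNA rows and the latter was the row that differed least.
mt-Ti: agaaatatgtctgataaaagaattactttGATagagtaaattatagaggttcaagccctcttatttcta
mt-Tq: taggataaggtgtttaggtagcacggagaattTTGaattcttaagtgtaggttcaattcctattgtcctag
mt-Tm: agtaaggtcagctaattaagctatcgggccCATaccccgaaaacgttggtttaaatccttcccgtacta
mt-Th: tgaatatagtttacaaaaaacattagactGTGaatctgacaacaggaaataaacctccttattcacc
mt-Ts2: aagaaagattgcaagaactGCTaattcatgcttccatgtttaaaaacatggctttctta
mt-Tl2: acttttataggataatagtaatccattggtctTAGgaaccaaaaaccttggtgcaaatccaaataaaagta
mt-Ts1: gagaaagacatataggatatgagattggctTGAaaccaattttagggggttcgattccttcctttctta
mt-Ty: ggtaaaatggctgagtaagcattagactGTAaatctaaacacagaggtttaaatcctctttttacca

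The targeted gene was checked first. Gdpd3 was at 7.30, 3.29 and 2.95 FPKM in Gdpd3+/+ libraries and at 0.110, 0.0129 and 0.681 FPKM in Gdpd3-/- libraries, so the genotypes did not overlap (log2 fold change -4.00, limma adjusted p = 0.0588, exact two-sided permutation p = 0.1, the smallest that 3 against 3 libraries allow). The sort markers Kit, Ly6a and Slamf1 were present in all 6 libraries. Flt3, which encodes the CD135 that the sort excluded, was detected too, at 9.80 to 11.0 FPKM in Gdpd3+/+ and 36.8 to 46.5 FPKM in Gdpd3-/- libraries (log2 fold change 1.93 ± 0.13 (SE), limma adjusted p = 0.00562). Cd48, also excluded by the sort, was at 39.8 to 44.8 FPKM in Gdpd3+/+ and 51.6 to 92.2 FPKM in Gdpd3-/- libraries. Itgam went the other way, at 19.3 to 22.3 and 1.69 to 13.4 FPKM. The other listed markers of excluded cells, Cd4, Cd8a and Ly6g, overlapped between genotypes. Markers of skeletal muscle set Gdpd3-/- replicates 5 and 6 apart from the other libraries. All 26 listed muscle genes were detected, and their summed share of covered bases was 0.239, 0.168 and 0.160% in Gdpd3+/+ but 2.07, 2.96 and 0.392% in Gdpd3-/- libraries. Immunoglobulin genes held 12.2 to 13.3% of bases in Gdpd3+/+ and 3.78 to 6.45% in Gdpd3-/- libraries, and the 6 neutrophil markers 2.03 to 2.06% and 0.599 to 0.682%. In bulk RNA of this kind, fewer cells of a type and less RNA per cell cannot be told apart. Depth, with the values read as covered bases (an inference that no source states), was 4.98, 6.28 and 6.13 Gb in the Gdpd3+/+ and 2.13, 3.64 and 2.51 Gb in the Gdpd3-/- libraries, and counts over all genes were 270 higher and 152 lower of 24689 tested at an adjusted p under 0.05.

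Mitochondrial genome transcripts took a larger share of the RNA in all 3 Gdpd3-/- libraries. Their share of covered bases was 1.90, 1.69 and 1.75% in Gdpd3+/+ libraries and 2.79, 3.003 and 1.98% in Gdpd3-/- libraries, with means of 1.78% ± 0.108 and 2.59% ± 0.538 (SD, n = 3 each). Replicate 7 lay only just above the highest Gdpd3+/+ library, and the spread within the Gdpd3-/- group came from the distance between it and replicates 5 and 6. The order of the 3 Gdpd3-/- libraries by this share was also their order by the muscle markers. In replicate 7 alone the mitochondrial share was 0.199 percentage points above the Gdpd3+/+ mean, against 0.808 for all 3 libraries. Replicate 7 also had all 26 muscle markers above every Gdpd3+/+ library. The part of muscle RNA in the difference was not tested. Removing immunoglobulin genes from the total left shares of 2.04 and 2.73%.

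**Figure D1:**
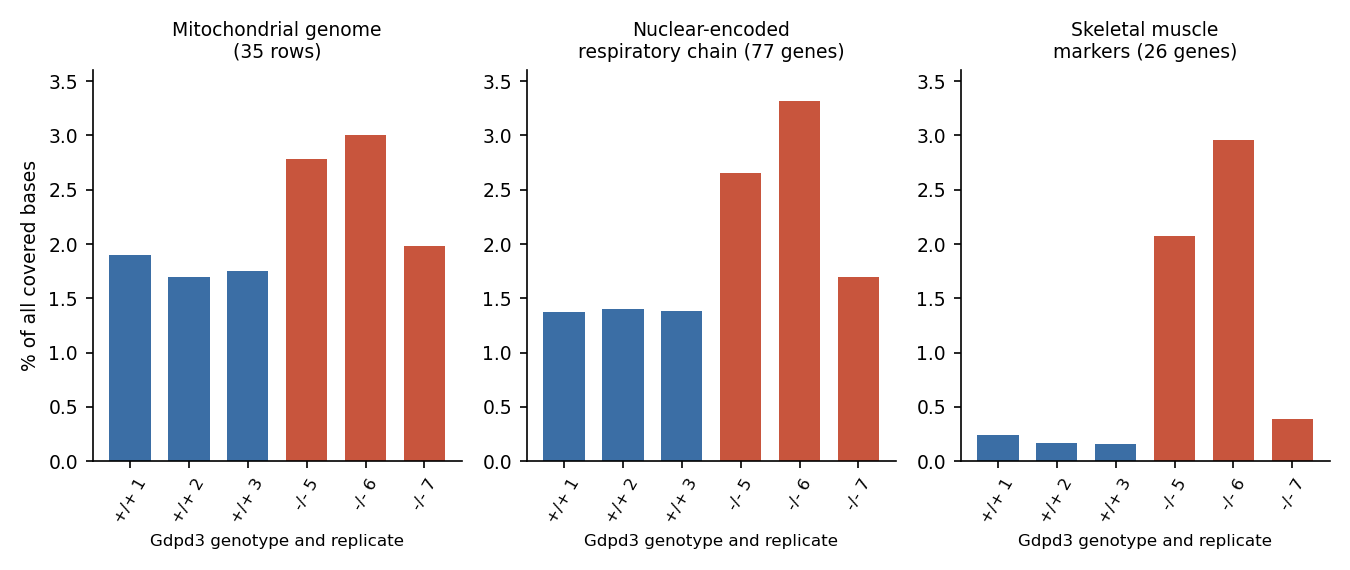
Share of all covered bases (%) taken by the 35 mitochondrial genome rows, by 77 nuclear-encoded respiratory chain genes and by 26 skeletal muscle markers, one bar per library (blue, Gdpd3+/+; red, Gdpd3-/-), all axes starting at 0. Replicates 5 and 6 stood highest in each panel, and replicate 7 lay closer to the Gdpd3+/+ libraries, at 1.98, 1.70 and 0.392%.

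Within the mitochondrial RNA itself, mRNAs held nearly all of the bases and the balance between complexes differed. Protein-coding rows held 98.2% ± 0.0514 (SD, n = 3) of the mitochondrial bases in Gdpd3+/+ and 97.4% ± 0.503 in Gdpd3-/- libraries, and the tRNA rows the remaining 1.78 and 2.601%. Of these, mt-Ts1 alone held 1.35 and 2.001%, a row that could not be separated from the end of mt-Co1 mRNA. The other 21 tRNA rows held 0.433 and 0.601%. The 7 complex I genes, which encode the membrane arm of NADH dehydrogenase, held 19.7, 19.4 and 19.6% of mitochondrial bases in Gdpd3+/+ libraries and 22.9, 24.5 and 19.7% in Gdpd3-/- libraries. Complex I thus took a larger part in replicates 5 and 6, whereas replicate 7 was at the Gdpd3+/+ level. Cytochrome b, the sole mitochondrial subunit of complex III, held 12.5 to 12.9% in Gdpd3+/+ and 11.6 to 12.0% in Gdpd3-/- libraries, lower in all 3. The 3 cytochrome c oxidase (complex IV) genes held 53.0 to 54.1% and 49.6 to 54.6%, so here the genotypes overlapped. The ATP synthase (complex V) genes mt-Atp6 and mt-Atp8 together held 11.89 to 12.8% and 10.7 to 11.85%, narrowly lower in all 3 Gdpd3-/- libraries.

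The order of levels over the protein-coding rows was steep and almost the same in every library. In Gdpd3+/+ cells, mt-Co3 was highest at 4188 ± 128 FPKM (SD, n = 3), followed by mt-Co1 at 3131 ± 251, mt-Atp6 at 2844 ± 249, mt-Co2 at 2066 ± 88.3 and mt-Cytb at 1979 ± 87.8 FPKM. Below these lay mt-Nd1 at 1698 ± 121 and mt-Atp8 at 1398 ± 130 FPKM, and then, after a nearly 3-fold step (2.97), mt-Nd4 at 471 ± 37.4 FPKM. The lowest were mt-Nd2 at 375 ± 22.5, mt-Nd5 at 320 ± 17.7, mt-Nd6 at 234 ± 14.3, mt-Nd3 at 229 ± 14.4 and mt-Nd4l at 137 ± 10.8 FPKM. Neighbours whose Gdpd3+/+ libraries overlapped were mt-Co1 and mt-Atp6, mt-Co2 and mt-Cytb, and mt-Nd6 and mt-Nd3. The first 3 places and the last were the same in all 6 libraries. These are places of rows, and nuclear copies hold most of the sequence of mt-Co3, mt-Co2, mt-Atp6, mt-Nd3 and mt-Nd4l. In Gdpd3+/+ libraries Gm10925, a copy of mt-Atp6, had a mean of 2823 FPKM and Gm10222, a copy of mt-Nd4l, one of 183 FPKM. How reads were divided between gene and copy was not tested, so these places need not be those of the mRNAs. Apart from mt-Nd3 and mt-Nd6 changing places in Gdpd3+/+ replicate 3, the order moved where complex I genes climbed in Gdpd3-/- cells: mt-Nd1 went from the sixth to the fourth place in replicate 6, and mt-Nd6 passed mt-Nd5 in replicates 5 and 6. mt-Atp8 and mt-Atp6 share 43 bases, mt-Nd4l and mt-Nd4 share 7, and mt-Nd5 and mt-Nd6 share 14 on opposite strands, so reads there could fall to either gene. The former 2 pairs overlap on the same strand, so the rows of each pair need not be levels of separate mRNAs.

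**Figure D2:**
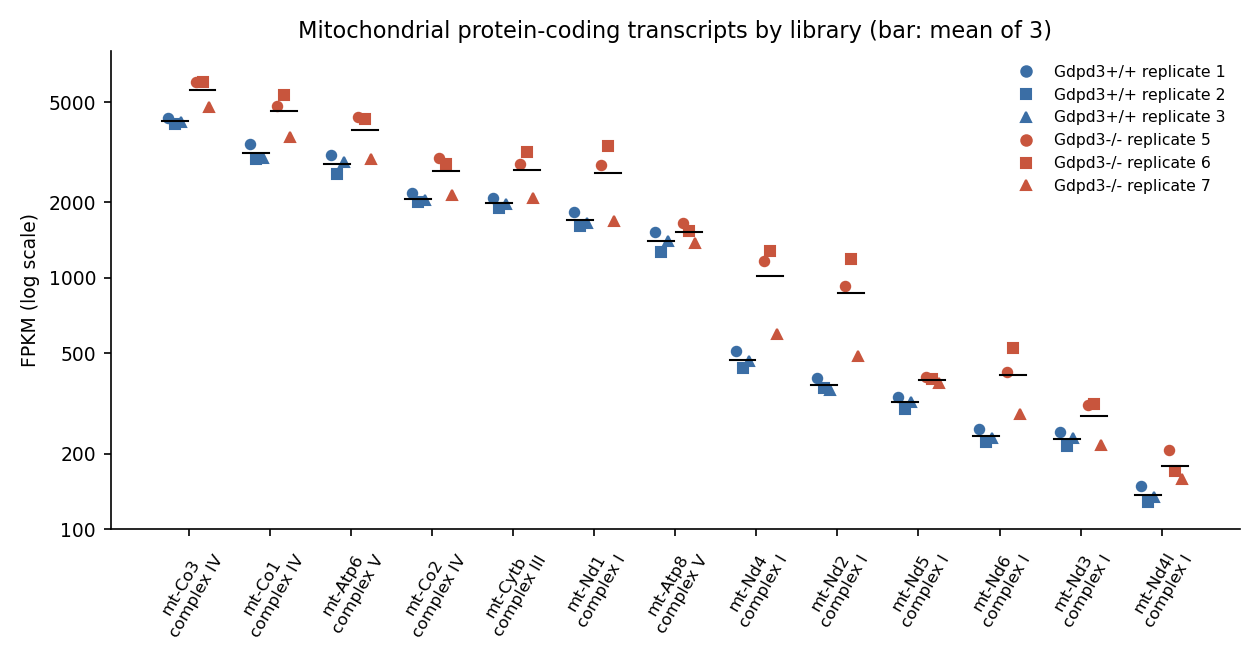
FPKM (log axis) of the 13 mitochondrial protein-coding genes, ordered by their Gdpd3+/+ mean, with the respiratory complex under each symbol; points are libraries (blue, Gdpd3+/+; red, Gdpd3-/-) and black lines are means of 3. The Gdpd3-/- means exceeded the Gdpd3+/+ means for every gene in FPKM as deposited (mt-Atp8 turned negative under TMM scaling), with replicates 5 and 6 well above replicate 7 for mt-Nd1, mt-Nd2 and mt-Nd4.

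The genotypes were then compared gene by gene, by limma over all 24689 genes tested, which included all 35 mitochondrial rows. 5 mitochondrial rows passed an adjusted p of 0.05, all of them tRNA rows and all higher in Gdpd3-/- cells, beside 1.09% of all genes called higher and 0.616% called lower (1.71% in all). None of the 13 mRNAs passed, although 7 had an unadjusted p under 0.05. Over the 35 rows, 22 had an unadjusted p under 0.05, all higher, where 16.5% of all genes did, and 24 had every Gdpd3-/- library above every Gdpd3+/+ library, where 23.5% of all genes did. No row lay below all Gdpd3+/+ libraries in every Gdpd3-/- library, as 8.27% of all genes did. The median log2 fold change was 0.61 over the 35 rows, 0.42 over the mRNAs and 0.90 over the tRNA rows, against 0.24 over all genes. 34 of 35 estimates were above 0, mt-Ty being the exception at -0.0062 ± 0.10 (SE). Under TMM scaling of the libraries, which brought the median of all genes to 0.04, mt-Atp8 also turned negative (-0.10) and the median of the 35 rows was 0.38, while the calls over all genes went from 270 higher and 152 lower to 112 higher and 254 lower.

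**Figure D3:**
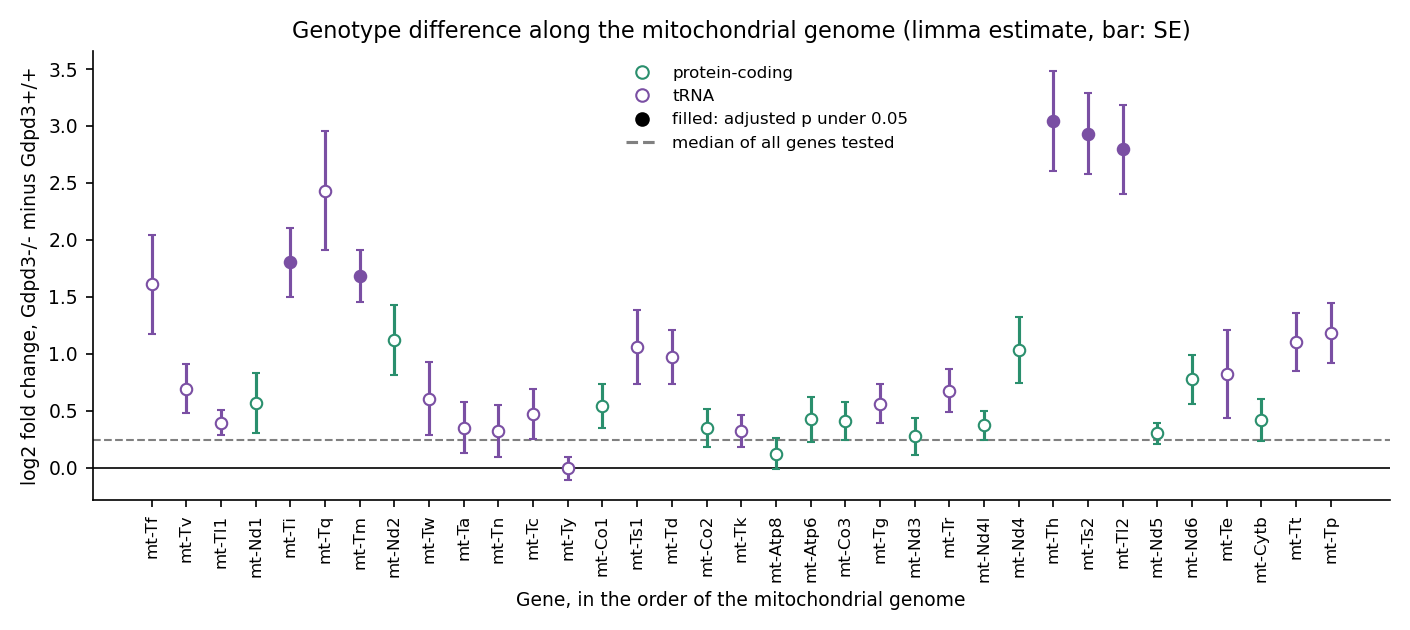
limma log2 fold change (Gdpd3-/- minus Gdpd3+/+, log2(FPKM + 0.1) scale, bar: SE) of the 35 rows in genome order; green, protein-coding; purple, tRNA; filled, adjusted p under 0.05; dashed line, median of all genes tested (0.24). The rows from mt-Ti to mt-Nd2 and from mt-Nd4 to mt-Tl2 form 2 peaks, with estimates up to 2.43 and 3.04, and mt-Ty lies next to 0, while mt-Atp8, at 0.12 here, turned negative under TMM scaling. Outside the peaks, mt-Tf (1.61), mt-Tp (1.18), mt-Tt (1.10) and mt-Ts1 (1.06) also exceeded the 1.03 of mt-Nd4.

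The calls depended on single libraries. Without any one of the 3 Gdpd3+/+ libraries, limma called 0 mitochondrial rows (17 to 21 with an unadjusted p under 0.05), and without Gdpd3-/- replicate 5 or 6 it called 1 and 4. Over all genes, leaving out Gdpd3+/+ replicate 1, 2 or 3 left 0, 1 and 21 calls of 24887, 24855 and 24862 tested. In these fits 3356, 3525 and 3238 genes had an unadjusted p under 0.05. Leaving out Gdpd3-/- replicate 5 or 6 left 187 and 462 calls of 23727 and 23839 genes. Without replicate 7, which was closest to the Gdpd3+/+ libraries, 23 rows were called, all higher and 10 of them mRNAs, beside 9.83% of all genes called higher. With replicate 7 as the only Gdpd3-/- library, assumed to vary like the others, 1 row (mt-Ti) was called beside 8.42% of all genes, and 31 of 35 estimates were above 0.

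Among complex I mRNAs, the largest log2 fold changes were those of mt-Nd2 and mt-Nd4. mt-Nd2 was at 401, 365 and 359 FPKM in Gdpd3+/+ libraries and at 929, 1190 and 489 FPKM in Gdpd3-/- libraries, a log2 fold change of 1.12 ± 0.31 (SE, limma adjusted p = 0.108). mt-Nd4 was at 511, 437 and 466 FPKM and at 1169, 1279 and 596 FPKM (log2 fold change 1.03 ± 0.29, limma adjusted p = 0.109). For both genes all 3 Gdpd3-/- libraries lay above all Gdpd3+/+ libraries, and replicate 7 was nearer to the Gdpd3+/+ values than to replicates 5 and 6. The row of mt-Nd6, the one mRNA of the minus strand, was at 250, 222 and 230 FPKM and at 424, 526 and 287 FPKM (log2 fold change 0.77 ± 0.22, limma adjusted p = 0.109), again without overlap. Without strand, RNA of the plus strand in this row could not be told apart from mt-Nd6 mRNA. mt-Nd1 was at 1834, 1603 and 1658 FPKM and at 2808, 3353 and 1685 FPKM (log2 fold change 0.57 ± 0.26, limma adjusted p = 0.256), so here replicate 7 lay among the Gdpd3+/+ libraries. mt-Nd5, which encodes the distal antiporter-like subunit, differed little but evenly: 337, 302 and 320 FPKM in Gdpd3+/+ against 401, 396 and 383 FPKM in Gdpd3-/- libraries (log2 fold change 0.30 ± 0.090, limma adjusted p = 0.124). It was the mRNA whose 3 Gdpd3-/- libraries lay closest together, with an SD of 9.58 FPKM. mt-Nd4l was at 128 to 149 FPKM and 158 to 207 FPKM and mt-Nd3 at 215 to 243 FPKM and 216 to 315 FPKM, the former without and the latter with overlap.

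The mRNAs of the other complexes had log2 fold changes between 0.12 and 0.54. mt-Co1, the catalytic subunit of cytochrome c oxidase, was at 3421, 2979 and 2994 FPKM in Gdpd3+/+ and at 4821, 5345 and 3633 FPKM in Gdpd3-/- libraries (log2 fold change 0.54 ± 0.19, limma adjusted p = 0.170). mt-Co3 was at 4330, 4082 and 4151 FPKM and at 5983, 6001 and 4789 FPKM (log2 fold change 0.41 ± 0.17, limma adjusted p = 0.214). Neither gene's libraries overlapped between genotypes. mt-Co2, which holds the copper site that receives electrons from cytochrome c, was at 1994 to 2165 FPKM and 2137 to 2998 FPKM, and replicate 7 lay within the Gdpd3+/+ range. mt-Cytb was at 1898 to 2072 FPKM and 2069 to 3161 FPKM and mt-Atp6, the proton channel subunit of ATP synthase, at 2578 to 3074 FPKM and 2966 to 4355 FPKM, also with overlap. The row of mt-Atp8, its small partner encoded just upstream, differed least of the 13 protein-coding rows, at 1527, 1267 and 1402 FPKM against 1647, 1537 and 1380 FPKM (log2 fold change 0.12 ± 0.13, limma adjusted p = 0.585).

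The tRNA rows between mt-Nd4 and mt-Nd5 showed the largest fold changes of the mitochondrial genome. mt-Th, the histidine tRNA, was at 1.33, 2.89 and 2.91 FPKM in Gdpd3+/+ libraries and at 15.3, 33.8 and 13.7 FPKM in Gdpd3-/- libraries, a rise of 3.04 ± 0.44 on the log2 scale (limma adjusted p = 0.0338). mt-Ts2, the serine tRNA that lacks a D arm and reads AGC, was at 1.69, 1.14 and 2.57 FPKM and at 11.1, 20.01 and 11.6 FPKM, a rise of 2.93 ± 0.36 (limma adjusted p = 0.0262). mt-Tl2, the leucine tRNA that reads CTA, was at 1.40, 2.596 and 2.44 FPKM and at 9.97, 25.2 and 13.4 FPKM, a rise of 2.79 ± 0.39 (limma adjusted p = 0.0334). The lowest Gdpd3-/- library was more than 3 times the highest Gdpd3+/+ library for each, and replicate 7 was here level with replicate 5. With replicate 7 as the only Gdpd3-/- library the log2 fold changes were 2.56, 2.70 and 2.63 and none passed (limma adjusted p = 0.113, 0.0931 and 0.0784). The muscle markers were at 0.392% of bases in replicate 7 and 2.07% in replicate 5, and their part in these rows was not tested. These 3 rows also had among the thinnest coverage: the mean coverage per base, which is the smallest number of reads that could have given it, was 6.64 to 18.1 in Gdpd3+/+ and 21.3 to 123 in Gdpd3-/- libraries, and the authors' mean normalised signal over the libraries was 29.0, 17.5 and 24.4. Relative to the mean of the flanking mt-Nd4 and mt-Nd5 mRNAs, their mean FPKM was 0.346, 0.606 and 0.671% in Gdpd3+/+ and 1.54, 3.17 and 2.65% in Gdpd3-/- libraries, so these rows differed by more than the mRNAs on either side.

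The tRNA rows between mt-Nd1 and mt-Nd2 formed the other peak. mt-Ti, the isoleucine tRNA, was at 40.7, 36.0 and 37.1 FPKM in Gdpd3+/+ and at 164, 179 and 78.6 FPKM in Gdpd3-/- libraries, a rise of 1.80 ± 0.30 on the log2 scale (limma adjusted p = 0.0483). mt-Tm, the methionine tRNA used for both initiation and elongation, was at 42.4, 41.6 and 32.7 FPKM and at 141, 154 and 88.5 FPKM, a rise of 1.68 ± 0.23 (limma adjusted p = 0.0315). mt-Tq, the glutamine tRNA between them on the minus strand, was at 93.2, 110 and 85.0 FPKM and at 731, 897 and 209 FPKM (log2 fold change 2.43 ± 0.52, limma adjusted p = 0.0731). All 3 rows were higher in every Gdpd3-/- library, with replicate 7 between the Gdpd3+/+ libraries and replicates 5 and 6. Their mean was 5.29, 6.39 and 5.14% of the mean of mt-Nd1 and mt-Nd2 in Gdpd3+/+ libraries and 18.7, 18.3 and 11.6% in Gdpd3-/- libraries. Coverage was deeper than in the other run, the lowest mean coverage per base of these rows being 198 (mt-Ti in replicate 7).

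No other tRNA row passed the adjusted test. mt-Ts1, the serine tRNA that reads TCA, was the highest tRNA row at 3940, 3181 and 3381 FPKM in Gdpd3+/+ and 8323, 10385 and 4466 FPKM in Gdpd3-/- libraries (log2 fold change 1.06 ± 0.33, limma adjusted p = 0.128). It lies on the minus strand and shares 3 bases with the end of mt-Co1, whose mammalian mRNA is known to run on into the antisense of this tRNA, and without strand these could not be separated. mt-Tp and mt-Tt, the proline and threonine tRNAs after mt-Cytb, were at 85.7 to 105 and 13.6 to 22.6 FPKM in Gdpd3+/+ and at 142 to 296 and 28.1 to 48.1 FPKM in Gdpd3-/- libraries, without overlap (limma adjusted p = 0.0783 and 0.0821). mt-Td, the aspartate tRNA, was at 9.12 to 10.5 and 14.3 to 27.0 FPKM, likewise without overlap (limma adjusted p = 0.0868). mt-Tr, the arginine tRNA between mt-Nd3 and mt-Nd4l, was at 3.92, 3.42 and 4.80 FPKM and at 6.26, 6.02 and 7.12 FPKM, higher in all 3 Gdpd3-/- libraries (log2 fold change 0.67 ± 0.19, limma adjusted p = 0.110). mt-Te, the glutamate tRNA between mt-Nd6 and mt-Cytb, was at 133, 94.4 and 119 FPKM and at 235, 323 and 109 FPKM, so that replicate 7 lay among the Gdpd3+/+ libraries (log2 fold change 0.82 ± 0.39, limma adjusted p = 0.265). The leading tRNAs of the heavy-strand transcript next to the rRNA genes were low: mt-Tf was at 2.11 to 5.32 and 7.61 to 17.6 FPKM and mt-Tv at 6.54 to 11.2 and 12.7 to 15.6 FPKM. Both were without overlap (log2 fold change 1.61 ± 0.44 and 0.69 ± 0.22, limma adjusted p = 0.103 and 0.131).

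A further run of tRNAs set a contrast with these. The tryptophan, alanine, asparagine, cysteine and tyrosine tRNAs between mt-Nd2 and mt-Co1 had log2 fold changes of 0.61, 0.35, 0.32, 0.47 and -0.0062, with limma adjusted p from 0.260 to 0.975. mt-Ty was at 344, 323 and 317 FPKM in Gdpd3+/+ and 300, 352 and 330 FPKM in Gdpd3-/- libraries, so the genotypes overlapped fully. Relative to mt-Nd2 and mt-Co1 the run was at 5.26 to 6.34% in Gdpd3+/+ and 3.47 to 5.46% in Gdpd3-/- libraries. The 3 runs of 3 or more tRNAs therefore stood at 2.88, 0.743 and 4.52 times the Gdpd3+/+ value relative to their flanking mRNAs in genome order. Means over rows follow the highest row, which was mt-Tq (612 FPKM in Gdpd3-/- libraries) from mt-Ti to mt-Tm and mt-Ty from mt-Tw to mt-Ty. The flank of mt-Ti to mt-Tm likewise followed mt-Nd1, at 1.54 times its Gdpd3+/+ mean, against 2.32 times for mt-Nd2. The pairs mt-Ts1 and mt-Td, and mt-Tt and mt-Tp, were also higher relative to their flanking mRNAs in all 3 Gdpd3-/- libraries, with means of 66.9 and 2.86% in Gdpd3+/+ and 103.1 and 4.83% in Gdpd3-/- libraries. Of the single tRNAs, mt-Tr was at 2.21% of its flanking mRNAs in Gdpd3+/+ and 2.90% in Gdpd3-/- libraries and mt-Te at 10.4 and 13.7%, both with overlap. Likewise, mt-Tl1 beside mt-Nd1 was at 5.73% of that mRNA in Gdpd3+/+ and 5.19% in Gdpd3-/- libraries, mt-Tk between mt-Co2 and mt-Atp8 at 0.401 and 0.427%, and mt-Tg between mt-Co3 and mt-Nd3 at 2.63 and 2.95%, each with overlap.

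**Figure D4:**
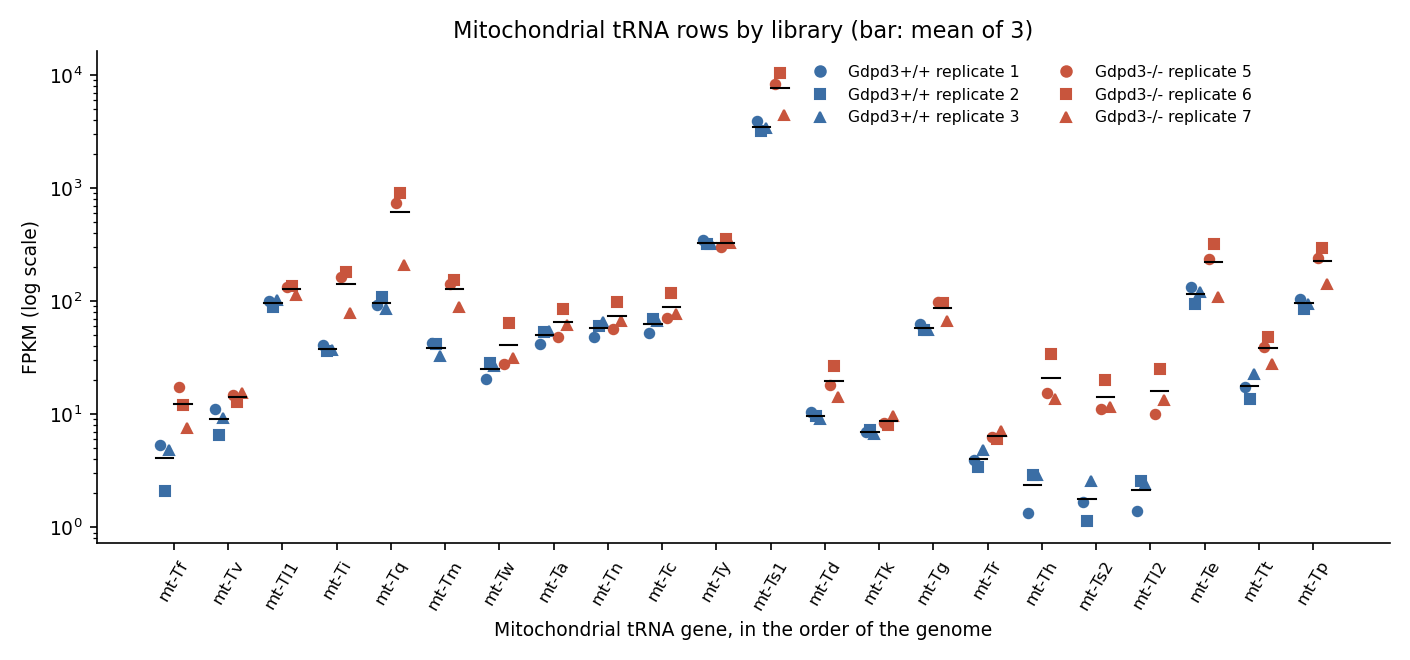
FPKM (log axis) of the 22 mitochondrial tRNA rows in genome order; points are libraries (blue, Gdpd3+/+; red, Gdpd3-/-) and black lines are means of 3. Levels spanned from 1.14 FPKM (mt-Ts2) to 10385 FPKM (mt-Ts1), and the genotypes lay farthest apart for mt-Th, mt-Ts2 and mt-Tl2.

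**Figure D5:**
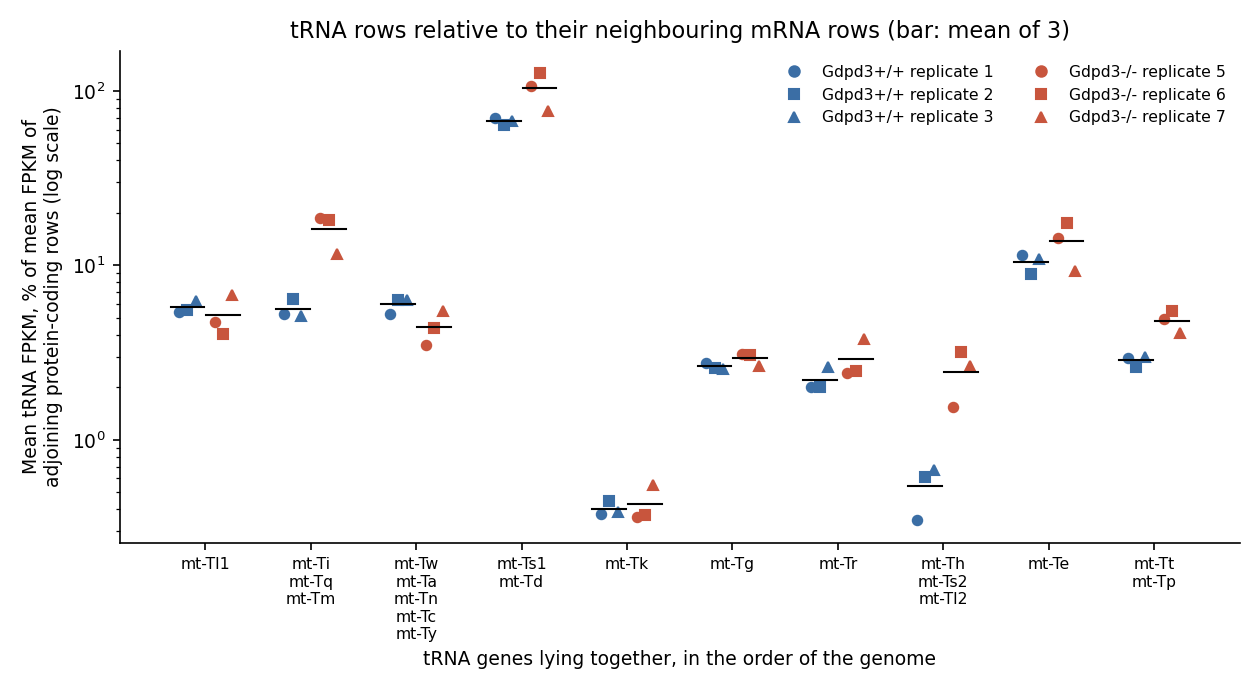
Mean FPKM of tRNA rows that lie together, as a percentage (log axis) of the mean FPKM of the protein-coding rows on either side; points are libraries and black lines are means of 3. The runs mt-Ti to mt-Tm and mt-Th to mt-Tl2 lay higher in all 3 Gdpd3-/- libraries (means of 16.2 and 2.46%, against 5.61 and 0.543%), and the run mt-Tw to mt-Ty did not (4.43 against 5.97%).

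No nuclear gene that serves to read, copy or process mitochondrial DNA passed the adjusted test. Over 58 such genes in 5 lists, limma called 0, with 9 at an unadjusted p under 0.05 (7 higher and 2 lower) where 22.2% of all genes were, and their median log2 fold change was 0.06 against 0.24 over all genes. Without replicate 7, 3 of them were called higher and 1 lower, beside 2364 higher and 1049 lower of all 24056 genes tested. Of the 10 transcription genes, Polrmt, the mitochondrial RNA polymerase, was at 4.53 to 6.08 FPKM in Gdpd3+/+ and 3.37 to 11.1 FPKM in Gdpd3-/- libraries. Tfam, which packages the DNA and starts transcription, was at 13.8 to 16.7 and 15.7 to 24.0 FPKM, and Tefm, the elongation factor, lay higher in all 3 Gdpd3-/- libraries (log2 fold change 0.42 ± 0.13, limma adjusted p = 0.126). Mterf1a, a termination factor, was at 4.62 to 4.94 and 1.75 to 4.47 FPKM. Of the 21 processing and stability genes, Hsd17b10, a subunit of mitochondrial RNase P, was at 80.9, 76.6 and 73.9 FPKM in Gdpd3+/+ and 119, 126 and 98.9 FPKM in Gdpd3-/- libraries, without overlap (log2 fold change 0.56 ± 0.12, limma adjusted p = 0.0665). Its partner Trmt10c was at 17.2 to 19.5 and 15.2 to 22.8 FPKM and Elac2, which cuts the other end of each tRNA, at 15.1 to 17.3 and 10.7 to 17.2 FPKM, both with overlap. Slirp, an mRNA stabiliser, had a log2 fold change of 0.36 ± 0.11 and Grsf1, of the RNA granules, one of -0.42 ± 0.14 (limma adjusted p = 0.115 and 0.147).

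In the lists for replication, translation and biogenesis no gene passed either. Replication genes had a median log2 fold change of -0.01, the smallest p belonging to Polg2, the accessory polymerase subunit (0.61 ± 0.26), Twnk, the helicase (0.21 ± 0.16), and Primpol (-0.13 ± 0.17), with limma adjusted p of 0.232, 0.490 and 0.647. Among translation factors, the elongation factors Gfm1 and Tufm had log2 fold changes of -0.38 ± 0.11 and 0.36 ± 0.15 and the initiation factor Mtif3 one of 0.28 ± 0.12 (limma adjusted p = 0.109, 0.228 and 0.235). Among regulators of biogenesis, the coactivators Ppargc1b and Pprc1 and the receptor Esrra lay higher in all 3 Gdpd3-/- libraries, by 0.95 ± 0.25, 0.57 ± 0.15 and 0.45 ± 0.13 on the log2 scale (limma adjusted p = 0.0952, 0.101 and 0.123). Under TMM scaling the estimate for Twnk turned negative.

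For the nuclear-encoded subunits of the respiratory complexes, none of 77 genes passed the adjusted test of limma, but 69 had an unadjusted p under 0.05, all higher, beside 16.5% of all genes, and 68 had every Gdpd3-/- library above every Gdpd3+/+ library, beside 23.5%. The median log2 fold change was 1.07 for complex I (36 genes), 0.46 for complex II (4), 1.10 for complex III (9), 1.03 for complex IV (11) and 0.75 for complex V (17), against 0.42 for the 13 mitochondrial mRNAs. The difference between these medians was not tested, and under quantile normalization that of the mitochondrial mRNAs (0.70) was above those of complex V (0.55) and complex II (0.30). Ndufs4, a complex I subunit, was at 59.6, 61.3 and 62.9 FPKM in Gdpd3+/+ and 122, 130 and 86.0 FPKM in Gdpd3-/- libraries (limma adjusted p = 0.0585), and Ndufb4 and Ndufs8 had log2 fold changes of 1.10 ± 0.25 and 0.77 ± 0.17. Sdhb of complex II had one of 1.27 ± 0.31, and Sdhc and Sdhd 0.65 ± 0.22 and 0.27 ± 0.18. In complex III, Uqcrh, Uqcr10 and Uqcr11 had log2 fold changes of 1.12 ± 0.27, 1.43 ± 0.36 and 1.45 ± 0.37. In complex IV, Cox4i1, Ndufa4 and Cox7c had values of 1.03 ± 0.27, 1.02 ± 0.26 and 1.202 ± 0.33, and in complex V, Atp5l, Atp5g3 and Atp5d values of 0.99 ± 0.22, 0.62 ± 0.14 and 0.75 ± 0.19. In all of these, replicates 5 and 6 carried the highest levels except for Sdhd, where replicate 5 was within the Gdpd3+/+ range. As a share of covered bases the 77 genes held 1.38 to 1.40% in Gdpd3+/+ libraries and 2.66, 3.32 and 1.70% in replicates 5, 6 and 7. Mitochondrial mRNA bases per base on these nuclear genes were accordingly 1.36, 1.19 and 1.24 in Gdpd3+/+ and 1.02, 0.877 and 1.14 in Gdpd3-/- libraries, lower in all 3 Gdpd3-/- libraries. Without replicate 7, 66 of the 77 genes and 10 of the 13 mitochondrial mRNAs were called higher, beside 9.83% of all genes. All 26 muscle markers were called higher as well.

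The genes whose levels followed the summed mitochondrial mRNAs most closely were sought among 15068 genes off the mitochondrial chromosome. Fhl1 (Pearson r = 0.9995 over 6 libraries), Cystm1 (0.998), Tcf7l2 (0.998), Lmod3 (0.998) and Bnip3 (0.997) came first, as a description over libraries that share their genotype contrast. Fhl1 and Lmod3 encode proteins of striated muscle, and Bnip3 encodes a receptor for the removal of mitochondria by autophagy. Fhl1 was at 8.37, 5.40 and 6.51 FPKM in Gdpd3+/+ and 29.9, 38.0 and 9.52 FPKM in Gdpd3-/- libraries, so it also set replicates 5 and 6 apart.

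Nuclear copies of mitochondrial DNA limit how far single mitochondrial genes could be resolved. Of all 75-base words in the mitochondrial gene, nuclear transcripts of GENCODE M21 also held 99.9% for mt-Co3, 99.5% for mt-Co2 and mt-Atp6, 98.7% for mt-Nd4l, 97.8% for mt-Nd3, 61.5% for mt-Nd4 and 39.8% for mt-Co1, but none for mt-Nd1, mt-Atp8, mt-Nd6 and mt-Cytb. Rows of 6 such copies were in the table. Gm10925, matched by symbol because its identifier differs in that annotation, where it is a copy of mt-Atp6, was at 3056, 2560 and 2853 FPKM in Gdpd3+/+ and 4213, 4118 and 2918 FPKM in Gdpd3-/- libraries, almost the values of mt-Atp6 itself. Gm10222, a copy of mt-Nd4l, was at 206, 165 and 179 FPKM and at 278, 228 and 213 FPKM, above mt-Nd4l in each library. Gm13339, Gm13340 and Gm13341, which hold parts of mt-Nd2, mt-Co1 and mt-Co2, had log2 fold changes of 1.26 ± 0.40, 0.82 ± 0.25 and 0.30 ± 0.16 (limma adjusted p = 0.136, 0.129 and 0.301). Gm11407, which holds 1.2% of the words of mt-Nd5, was at 1.05 to 1.30 and 1.67 to 2.05 FPKM. Reads of the mitochondrial gene and of its copy could not be separated in these rows, whereas the differences of mt-Nd1, mt-Nd6 and mt-Cytb rested on sequence without such a copy among the annotated transcripts. For mt-Nd6 the strand of the RNA remained unresolved. The tRNA genes were left out of the search for shared words, so nuclear copies of the called tRNA rows were not checked.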

How the data were processed

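The authors sorted cells into lysis reagent, made cDNA from total RNA with the SMART-Seq v4 kit, fragmented it with Nextera XT and sequenced paired reads of 150 bases. The submitters' processing notes name Trimmomatic, Trim Galore, cutadapt 1.16, STAR 2.6.1a, featureCounts 1.6.1, DESeq2 and the mm9 build. The authors deposited FPKM per gene and library, which were used for every result, and a DESeq2 table from which only the base mean was used, a normalised signal averaged over the libraries by the authors. Its other columns hold the authors' comparison of the genotypes and were not used. FPKM times gene length summed to the same total in each library, and the values corresponded to whole numbers of bases in 100% of rows above 0 (tolerance 0.05), which were read as covered bases. No source states this reading, and depth, coverage and shares of bases rest on it. The unit is not counts, so no count model was fitted.

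Genes whose FPKM averaged 0.05 or more over the libraries were fitted, as log2(FPKM + 0.1), with limma 3.58.1 (R 4.3.3, intensity trend, genotype as the only term), with Benjamini-Hochberg adjustment over all 24689 genes. Library numbers are the labels' own. The paper counts 3 biologically independent samples per genotype, but the labels do not tie libraries to separate groups of animals. The p-values therefore measure the spread between these libraries, which may be partly technical. The 35 members and all gene lists were chosen with earlier results of these data known. Named are all mitochondrial rows, Gdpd3, in each nuclear list of mitochondrial function every member called and the 3 members with the smallest p, and the 5 most alike genes; Polrmt, Trmt10c and Elac2 were added for their roles after their values were seen. Alternatives were other pseudocounts, filters, scalings, weights and left-out libraries.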

Additional observations from a re-analysis of the deposited data

How the results depend on the processing

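Across 16 alternatives the direction of all mitochondrial rows held except where named here. The number of mitochondrial rows called, 5 in the reported fit, was 0 without a filter on low values, 0 without the intensity trend, 2 with array weights and 0 to 23 when single libraries were left out. With replicates 5 and 6 both left out, an alternative chosen after seeing the data, it was 1. Over all genes the count of 422 became 225 with a pseudocount of 1, 673 at a mean FPKM of at least 1, 153 without the trend, 240 with array weights, 2294 without replicates 5 and 6 and 0 to 3413 with single libraries left out. Gdpd3 passed the threshold at a mean FPKM of at least 1 (-4.00, limma adjusted p = 0.0481) and without Gdpd3-/- replicate 7 (-4.79, limma adjusted p = 0.0106). Its estimate ranged from -4.79 to -3.39 over single left-out libraries and was at -2.44 without replicates 5 and 6. With a pseudocount of 0.01 it was -5.07 and with one of 1 it was -2.07, so its size depended on the pseudocount. The difference in mitochondrial share was 2.58 percentage points of summed FPKM and, without replicates 5 and 6, 0.199 points of covered bases; over single left-out libraries it ran from 0.601 to 1.11. Reversed estimates without replicates 5 and 6 were mt-Nd1 (-0.0087), mt-Atp8 (-0.015), mt-Nd3 (-0.083), mt-Te (-0.070) and mt-Ty (0.0084). mt-Ty also turned positive when scaled to nuclear bases (0.0057) and without Gdpd3+/+ replicate 1 (0.029) or Gdpd3-/- replicate 5 (0.055), its estimates over single left-out libraries running from -0.060 to 0.055, and under TMM scaling mt-Atp8 (-0.099) and Twnk (-0.013) turned negative. The cause was not tested. Leaving out the rRNA rows could give no value, since they were not among the rows of this chromosome. No paired analysis was possible because the genotypes share no replicate number. Among the rows that depth limits are those between mt-Nd4 and mt-Nd5.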
